A study of Homo sapiens with 32 samples.

Results

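The genes described here are 8 members of the epithelial adhesion and cadherin switch programme, namely the cadherins CDH1, CDH2 and CDH3, the catenins CTNNA1, CTNNB1 and CTNND1, the adhesion molecule EPCAM and the intermediate filament protein vimentin (VIM). They were chosen by name, through the match of the Ensembl identifiers of the count table to GENCODE symbols, and 8 of 8 were found among the 17788 genes of the table. The rule uses names and no threshold on measured values, and 8 of 8 passed the filter on low counts.

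Classical cadherins span the plasma membrane of neighbouring cells and bind each other outside, while their cytoplasmic tails bind β-catenin and p120-catenin, and α-catenin links β-catenin to actin. In epithelial-mesenchymal transition (EMT), cells commonly lose E-cadherin and gain N-cadherin, which is called the cadherin switch, and vimentin filaments become more abundant. EPCAM is a homophilic adhesion molecule of simple and glandular epithelia, and basal mammary cells carry P-cadherin beside E-cadherin.

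The cells were clones of MCF10A, an immortalized and non-tumorigenic human mammary epithelial line, grown in medium with horse serum, EGF, hydrocortisone, cholera toxin and insulin. Clones 27 and 2 carried unedited JUNB (WT), and clones 1 and 65 carried JUNB edited with CRISPR/Cas9 (mut, labelled as knock-out). Each clone grew from a single cell, and the mut clones kept a low, TGFβ1-inducible amount of a smaller JUNB polypeptide. Each clone received solvent or the cytokine TGFβ1 at 5 ng/ml for 6, 24 or 72 h in 2 replications, which gave 8 groups of 4 libraries and 32 libraries in all. Solvent was given for 72 h on a separate plate, and all cultures were harvested at the same time after seeding. A solvent library is thus a parallel culture and not the state before TGFβ1 was added. With 2 clones per genotype, an effect of the JUNB edit and a difference between clones cannot be told apart. Values of a group are given in the order 27-1, 2-1, 27-2 and 2-2 for WT and 1-1, 65-1, 1-2 and 65-2 for mut, where the first number is the clone and the second the replication. One clone with one replication number is called a series.

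Library totals ranged from 39702412 to 54651906 counts. The 8 markers of basal mammary epithelium all averaged 1 or more CPM, which are counts per 1000000 counts of a library, with KRT5, a basal keratin, at a mean of 5781 CPM, as were 4 of 8 luminal, 2 of 8 fibroblast, 2 of 5 endothelial and 1 of 5 leukocyte markers. The summed luminal markers reached 707 to 975 CPM in mut solvent and 380 to 575 CPM in WT solvent libraries, and the summed endothelial markers, of which KDR had a mean of 13.3 CPM over all libraries and TEK of 1.56 CPM, 23.2 to 28.6 and 6.72 to 17.0 CPM. The summed fibroblast markers were 15.3 to 22.1 CPM in WT solvent and 39.0 to 60.1 CPM in WT at 72 h, with only DCN and COL1A1 at a mean of at least 1 CPM over all libraries and COL1A2, COL3A1 and THY1 at 0.0284, 0.0133 and 0.0122 CPM. The summed basal markers were 14834 to 16471 CPM in mut solvent and 12513 to 13985 CPM in WT solvent libraries. The part of all these markers in the results was not tested. JUNB itself was read at 89.7, 117, 94.0 and 90.0 CPM in WT and 69.2, 128, 77.5 and 172 CPM in mut solvent libraries, which overlapped (log2 fold change 0.10 ± 0.34, adjusted p = 0.88 in limma-voom), so its gene count did not check the label. In the mixed RNA of a culture, fewer cells of a type and less RNA per cell cannot be told apart.

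Fold changes are given on the log2 scale with their standard error. Levels between genes were compared as TPM, transcripts per 1000000, from the length of all exons of a gene. In WT solvent libraries VIM was highest with 795 ± 184 TPM (mean ± SD, n = 4 here and throughout). CDH3 followed with 336 ± 28.9, CTNNA1 with 275 ± 12.2, CDH1 with 237 ± 66.9 and CTNNB1 with 145 ± 16.1 TPM. CTNNA1 and CDH1 differed by less than the SD of CDH1. EPCAM, at 78.9 ± 15.8 TPM, and CDH2, at 21.1 ± 6.32 TPM, were the lowest of the members with an unshared sequence on their own strand. CTNND1 was read at 2.76 ± 0.217 TPM, but 39.1% of its exon bases also lie in exons of 2 other annotated genes on the same strand, ENSG00000288534 and ENSG00000254732, neither among the genes analysed, so its level is uncertain. Of the VIM exon bases 24.6% are shared with a gene on the other strand, and 3.58% to 8.40% of those of CDH1, CDH2, CDH3 and CTNNA1, and this unstranded library kit cannot separate such reads.

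**Figure D1:**
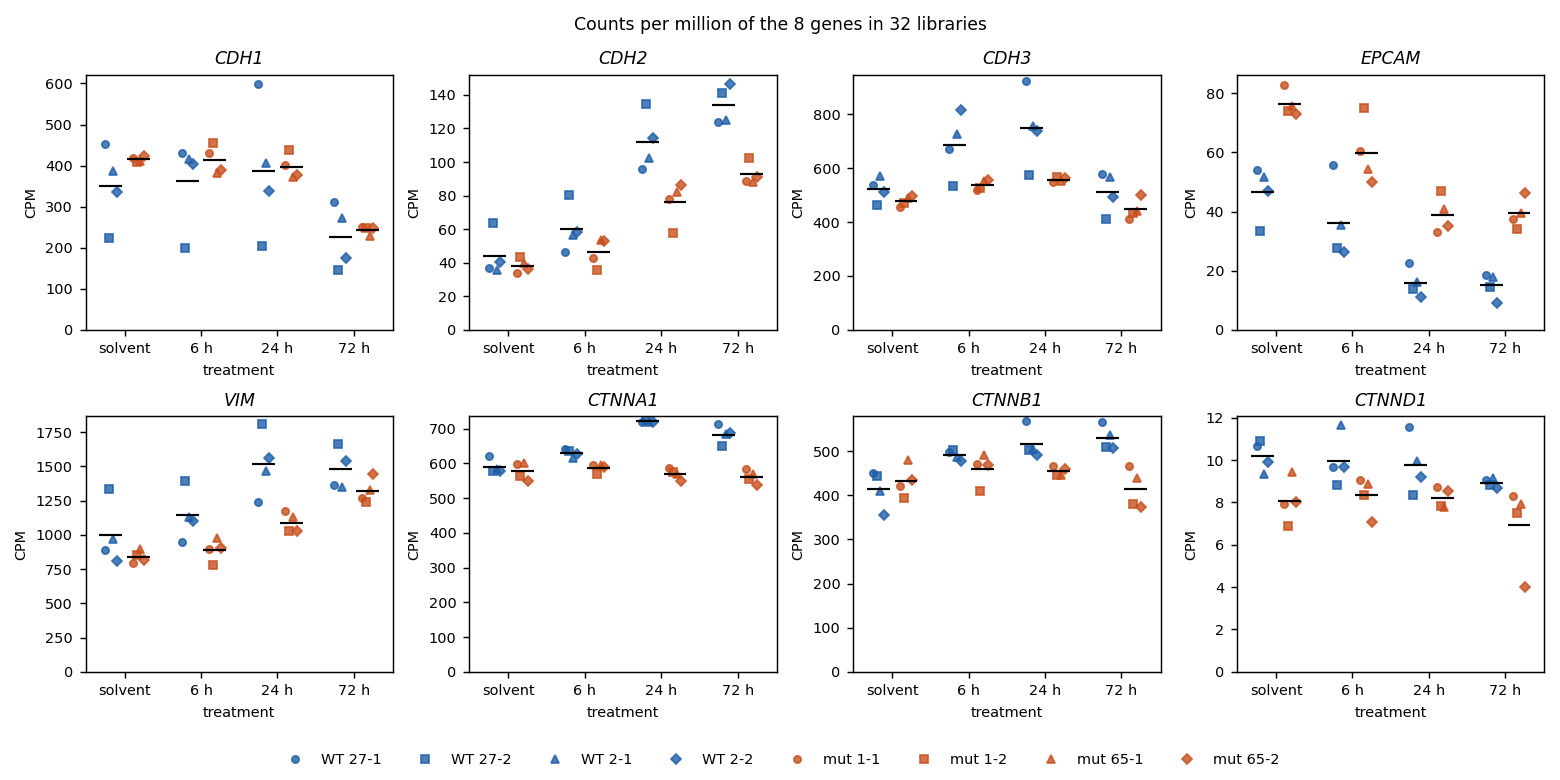
Counts per 1000000 (CPM) of each of the 8 genes in the 32 libraries, by treatment (solvent or hours of TGFβ1), with WT in blue, mut in orange, one symbol per series and black lines at the group means. CDH2 and VIM climb and EPCAM drops with time in both genotypes, EPCAM is higher in mut at each treatment, and the series 27-2 is lowest for CDH1 in every WT group.

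Differentially expressed genes (DEGs) were called at 0.05 after Benjamini-Hochberg adjustment of the limma-voom p, and the share of DEGs among all 14865 genes tested is given as background. In WT, TGFβ1 changed 2 of the 8 genes at 6 h (background 17.0%), 6 at 24 h (52.1%) and 6 at 72 h (52.2%). In mut it changed 0 at 6 h (7.0%), 3 at 24 h (23.8%) and 4 at 72 h (24.1%). Between neighbouring times, 4 members changed from 6 to 24 h in WT (28.2%) and 1 in mut (3.12%), and 1 changed from 24 to 72 h in WT (7.83%) and 0 in mut (1.31%). Between mut and WT, 1 member differed in solvent (12.7%) and 3 did at 6 h (21.4%), while 5 differed at 24 h (36.9%) and also at 72 h (39.2%). The interaction, which is the mut change minus the WT change, was called for 0 members at 6 h (0.0740%), 1 at 24 h (9.65%) and 2 at 72 h (12.3%). At 6 h in mut, EPCAM was the member with the smallest unadjusted p, 0.048, which was 1 of 8 under 0.05, while the edgeR and DESeq2 tests also called 0, and 1 was called once the series entered as a replicate block (EPCAM, or CDH3 with TMM factors). From 24 to 72 h in mut, 3 members had an unadjusted p under 0.05, edgeR and DESeq2 called 0, and the fit with the block called 3. For the interaction at 6 h 0 members had an unadjusted p under 0.05, and edgeR and DESeq2 called 0. With so high a background at 24 and 72 h, the count of members called is not set apart from it, and the directions and sizes follow.

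Scaling by library size put the median of all genes at -0.18 and -0.19 on the log2 scale for WT at 24 and 72 h and at 0.10 for the interaction at 72 h, against 0.00 and -0.03 and 0.02 with TMM factors. Of the DEGs of WT at 72 h, 2061 were higher and 5705 lower, against 3189 and 3459 with TMM factors. A rise of a member in WT is thus larger, and a fall smaller, relative to the other genes than its log2 fold change says.

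The WT series 27-2 stood apart in these genes already in solvent. Its solvent library held 224 CPM of CDH1 against 335 to 453 CPM in the other 3 WT libraries, 63.6 against 35.7 to 40.2 CPM of CDH2, 1336 against 809.8 to 969 CPM of VIM and 33.5 against 46.9 to 54.2 CPM of EPCAM. It was the lowest WT library in 4 of 4 groups for CDH1 and CDH3 and the highest in 4 of 4 for VIM and in 3 of 4 for CDH2. The catenins showed no such place, with CTNNB1 between the other libraries in 3 of 4 groups. Without this series the WT changes at 72 h were -0.66 (adjusted p = 0.0012) for CDH1, 1.81 (adjusted p = 4.4e-10) for CDH2, -1.81 (adjusted p = 2.9e-06) for EPCAM and 0.68 (adjusted p = 1.7e-06) for VIM. The CDH1 decrease from 24 to 72 h in WT became -0.83 (adjusted p = 0.0029). In mut, the library 1-2 at 6 h had the lowest CDH2 and VIM and the highest CDH1 and EPCAM of its group.

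E-cadherin, encoded by CDH1 (chromosome 16, 68737292 to 68835537, plus strand, GRCh38), is the classical cadherin of epithelial cells. In WT its values were 453, 387, 224 and 335 CPM in solvent and 599, 407, 205 and 338 CPM after 24 h, and these groups overlapped. After 72 h they were 311, 273, 147 and 174 CPM. In each of the 4 WT series the 72 h library was lower than the solvent library, yet the groups still overlapped because the solvent library of 27-2 lay below the 72 h values of 27-1 and 2-1. The fall was called (log2 fold change -0.65 ± 0.25, adjusted p = 0.03). It lost its call with edgeR, at -0.47 (adjusted p = 0.11), with DESeq2, at -0.46 (adjusted p = 0.11), and in a fit of only the compared groups, at -0.65 (adjusted p = 0.069). The call was also lost with TMM factors, at -0.49 (adjusted p = 0.1), and without any one of the solvent libraries 27-1, 2-1 and 2-2 or the 72 h libraries 27-2 and 2-2, at between -0.66 and -0.47 with adjusted p between 0.05 and 0.14. Within series the log2 change from solvent to 72 h was -0.65 ± 0.20 (mean ± SD), from -0.95 to -0.50, and thus lower in 4 of 4 WT series.

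In mut the solvent libraries held 419, 410.1, 408 and 424 CPM of CDH1, a far narrower range than in WT. The 72 h libraries held 249.8, 227, 248 and 248 CPM, all below the solvent libraries (log2 fold change -0.77 ± 0.25, adjusted p = 0.024). Without the series 1-2 the value was -0.79 (adjusted p = 0.084), and without the solvent library 65-2 or the 72 h library 65-1 it was -0.76 (adjusted p = 0.052) and -0.74 (adjusted p = 0.052). Within series the log2 change of CDH1 from solvent to 72 h was -0.77 ± 0.06 (mean ± SD) and lower in 4 of 4 mut series. From 24 to 72 h the value was -0.74 ± 0.25 (adjusted p = 0.066) in WT and -0.71 ± 0.25 (adjusted p = 0.15) in mut, uncalled in both, and with series as replicate block it was called in both, at -0.74 (adjusted p = 2.1e-06) and -0.71 (adjusted p = 1.2e-05). No difference between mut and WT was called for CDH1 at any treatment, and at 72 h the 95% interval of the log2 difference ran from -0.34 to 0.69.

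N-cadherin, encoded by CDH2 (chromosome 18, 27932879 to 28177946, minus strand), is the cadherin of mesenchymal and neural cells. The WT libraries rose from 36.8, 35.7, 63.6 and 40.2 CPM in solvent to 96.0, 102, 134 and 114 CPM at 24 h. At 72 h they held 124, 125, 141 and 147 CPM, and neither later group overlapped the solvent group. The mean went from 44.1 ± 13.2 CPM to 134 ± 11.4 CPM (log2 fold change 1.65 ± 0.16, adjusted p = 3.7e-09), which was the largest rise among the members.

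In mut, CDH2 was 33.6, 39.6, 43.6 and 36.4 CPM in solvent and 77.9, 82.4, 57.4 and 86.2 CPM at 24 h. At 72 h it was 89.0, 87.9, 102 and 91.2 CPM, again without overlap with solvent (log2 fold change 1.28 ± 0.17, adjusted p = 1.6e-06). Every mut library at 72 h lay below every WT library at 72 h (log2 fold change -0.53 ± 0.15, adjusted p = 0.0062), and the difference was also called at 24 h, at -0.56 ± 0.16 (adjusted p = 0.0056). In solvent it was -0.16 ± 0.18 (adjusted p = 0.6), uncalled, and without the series 27-2 it was 0.02 (adjusted p = 0.95). The interaction at 72 h, -0.37 ± 0.23 (adjusted p = 0.32), was uncalled, with a 95% interval from -0.85 to 0.10, so a smaller change in mut was not shown. At 6 h the WT value 0.47 ± 0.17 (adjusted p = 0.052) missed the threshold, and with series as replicate block it was 0.46 (adjusted p = 0.006). The rise from 6 to 24 h was called in WT, at 0.90 ± 0.16 (adjusted p = 9.0e-05), and in mut, at 0.71 ± 0.16 (adjusted p = 0.017). The latter call was lost without the 6 h library 1-2 (adjusted p = 0.083) or any one of the 24 h libraries 1-1, 65-1 and 65-2 (adjusted p = 0.06 to 0.082).

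RefSeq gives promoter windows, from 250 bases before to 50 after a start site on GRCh38.p14, for 4 of the 8 members, CDH2, CTNNA1, CTNNB1 and VIM, in 8 windows. The part before the start and outside annotated exons is shown for the members with called rises in WT, since AP-1, the factor that JUNB belongs to, and the repressors of the SNAIL and ZEB families bind short known motifs. Capitals mark matches to TGANTCA, a loose form of the AP-1 site that takes any middle base, or to the E-box CANNTG. Both strands were searched, and all other bases are in lower case.
CDH2 start site 28177130, chr18:28177131-28177380, minus strand: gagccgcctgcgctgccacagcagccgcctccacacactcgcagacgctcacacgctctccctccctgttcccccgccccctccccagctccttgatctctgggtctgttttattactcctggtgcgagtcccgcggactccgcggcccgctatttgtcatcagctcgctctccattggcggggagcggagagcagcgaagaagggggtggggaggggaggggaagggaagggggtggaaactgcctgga
CDH2 start site 28036641, chr18:28036642-28036891, minus strand: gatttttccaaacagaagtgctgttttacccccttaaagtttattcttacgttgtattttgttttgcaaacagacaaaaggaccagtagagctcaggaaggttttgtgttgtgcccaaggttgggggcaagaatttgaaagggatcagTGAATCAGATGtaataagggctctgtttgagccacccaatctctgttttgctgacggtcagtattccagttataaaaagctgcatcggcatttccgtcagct
CTNNA1 start site 138753425, chr5:138753175-138753417, plus strand: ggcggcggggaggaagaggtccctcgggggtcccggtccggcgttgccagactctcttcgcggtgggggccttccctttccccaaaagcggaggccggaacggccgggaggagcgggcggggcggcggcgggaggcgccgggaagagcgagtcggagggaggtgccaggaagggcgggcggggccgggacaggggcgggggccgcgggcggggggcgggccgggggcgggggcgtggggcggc
CTNNB1 start site 41199505, chr3:41199255-41199388, plus strand: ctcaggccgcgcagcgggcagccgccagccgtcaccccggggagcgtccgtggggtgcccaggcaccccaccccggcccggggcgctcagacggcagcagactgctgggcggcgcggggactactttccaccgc
VIM start site 17228241, chr10:17227991-17228240, plus strand: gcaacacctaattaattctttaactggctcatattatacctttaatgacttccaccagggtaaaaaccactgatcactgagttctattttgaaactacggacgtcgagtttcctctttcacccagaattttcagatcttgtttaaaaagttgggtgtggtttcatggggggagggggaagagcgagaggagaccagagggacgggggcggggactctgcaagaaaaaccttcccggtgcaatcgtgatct
The only match to TGANTCA in these stretches, TGAATCA, stands before the inner CDH2 start site, with an E-box that overlaps it. Its middle base is A, where the stricter AP-1 site has C or G, and no stretch shown holds that form. TGANTCA occurs in 7.71% and the E-box letters in 68.7% of all 35116 windows of this length. CAGGTG, the form SNAIL and ZEB proteins favour, occurs in 20.6%, so a match is a description and not a binding site. Of the 3 CTNNA1 windows not shown, 2 hold E-box letters and 1 of them also TGACGTCA, a related motif found in 1.85% of all windows. The gene counts do not tell which start site was used.

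P-cadherin, encoded by CDH3, lies just before CDH1 on the same strand (chromosome 16, 68636189 to 68727468) and is the cadherin of basal epithelial cells. In WT it was 539.5, 572, 463 and 512 CPM in solvent and 671, 727, 533 and 816 CPM at 6 h. At 24 h it was 923, 758, 577 and 737 CPM and at 72 h 577, 568, 411 and 493 CPM. It thus went up and came back, with called changes of 0.38 ± 0.11 (adjusted p = 0.019) at 6 h, 0.51 ± 0.11 (adjusted p = 4.6e-04) at 24 h and -0.54 ± 0.11 (adjusted p = 0.0047) from 24 to 72 h, and a value of -0.03 ± 0.11 (adjusted p = 0.83) at 72 h against solvent whose sign turned with TMM factors, at 0.13 (adjusted p = 0.35). The 6 h call was lost without the solvent library 27-2 or the 6 h library 2-1 or 2-2, the last at 0.30 (adjusted p = 0.1).

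In mut, CDH3 was 455, 489.5, 472 and 497 CPM in solvent and 549, 551, 566 and 563 CPM at 24 h, where the groups did not overlap. The value at 24 h, 0.22 ± 0.11 (adjusted p = 0.16), was uncalled, and with series as replicate block it was 0.22 (adjusted p = 0.013). At 24 h CDH3 was lower in mut than in WT, at -0.41 ± 0.11 (adjusted p = 0.0063). The interaction at 24 h was -0.29 ± 0.16 (adjusted p = 0.29), uncalled, and -0.29 (adjusted p = 0.036) with the block. At 6 h the difference between mut and WT, -0.33 ± 0.11 (adjusted p = 0.036), was called, and it was lost without any one of 7 of the 8 libraries of these groups (all but WT 27-2), at adjusted p between 0.053 and 0.15.

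As shares of the summed TPM of these 3 cadherins, CDH3 held the most in every group, from 50.7% ± 0.932 in mut solvent to 62.1% ± 3.72 in WT at 6 h. The share of CDH1 went from 39.3% ± 5.83 in WT solvent to 27.3% ± 4.95 at 72 h, and that of CDH2 from 3.74% ± 1.77 to 12.2% ± 3.12. In mut the CDH1 share went from 46.3% ± 1.08 to 33.2% ± 1.81 and the CDH2 share from 3.02% ± 0.347 to 8.94% ± 0.709. Even at 72 h, then, CDH2 was the smallest of the 3 shares in each library.

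**Figure D2:**
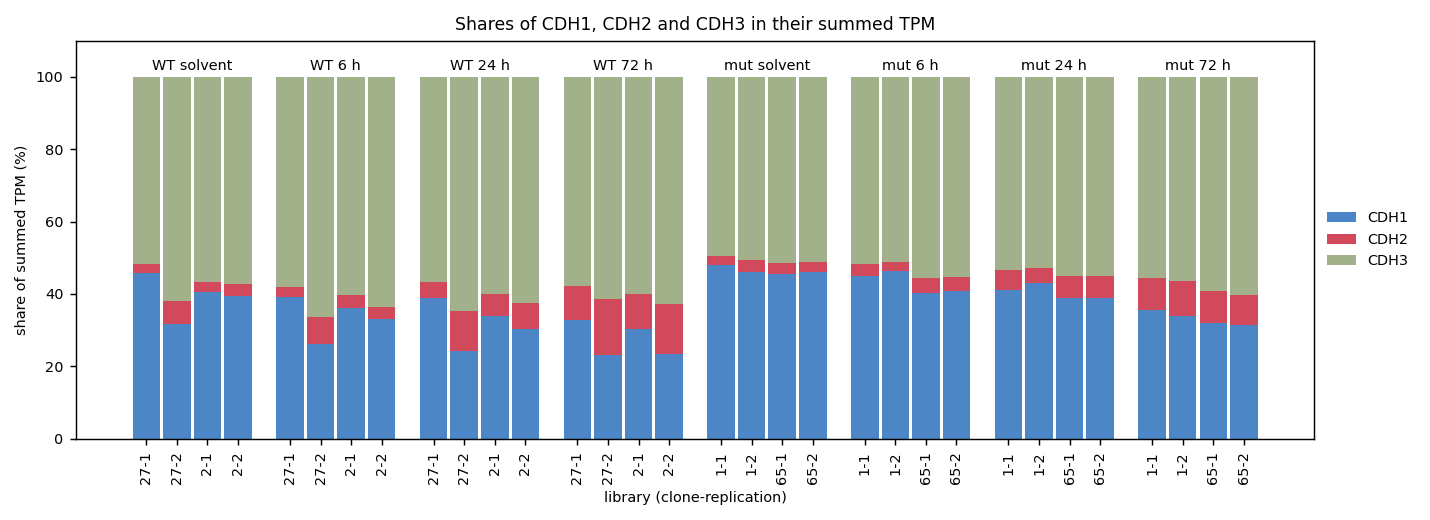
Share in percent of CDH1, CDH2 and CDH3 in their summed TPM for each of the 32 libraries, grouped by genotype and treatment. CDH3 is the largest share in all 32 libraries, and CDH2 widens from means of 3.74% to 12.2% in WT and 3.02% to 8.94% in mut between solvent and 72 h.

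The log2 ratio of CDH2 to CDH1 counts within a library does not depend on scaling between libraries. It was -3.62, -3.44, -1.82 and -3.06 in WT solvent and -1.32, -1.13, -0.05 and -0.25 at 72 h. In mut it was -3.64, -3.37, -3.23 and -3.54 in solvent and -1.49, -1.37, -1.27 and -1.44 at 72 h. The groups of a genotype did not overlap, and the ratio stayed below 0 in all 32 libraries, so that CDH1 had more counts than CDH2 throughout. Within series the ratio rose by 2.30 ± 0.43 in WT and by 2.05 ± 0.09 in mut, in 4 of 4 series each. No test was made of this ratio.

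**Figure D3:**
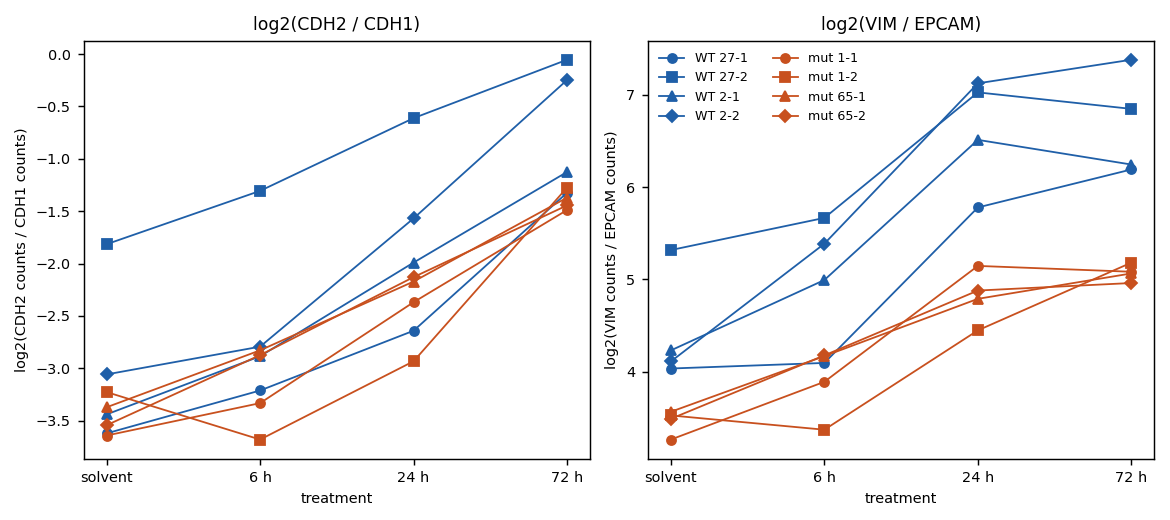
Log2 ratios of CDH2 to CDH1 counts (left) and of VIM to EPCAM counts (right) in each library, by treatment, with one line per series, WT in blue and mut in orange. Both ratios are higher at 72 h than in solvent in every series, and in solvent the WT series 27-2 lies at -1.82 for CDH2 to CDH1, above the other 7 series.

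Among the catenins, α-catenin, encoded by CTNNA1, links the cadherin complex to actin. Its WT values were 621, 584, 579 and 578 CPM in solvent, then 718, 720.2, 726 and 720.3 CPM at 24 h, and after 72 h 713, 685, 649 and 687 CPM. Both later groups lay above solvent, with very little spread at 24 h. The changes were small, 0.29 ± 0.04 (adjusted p = 7.5e-07) at 24 h and 0.21 ± 0.04 (adjusted p = 7.5e-05) at 72 h. In mut the values were 598, 602, 565 and 549 CPM in solvent, then 587, 569, 577 and 550.0 CPM at 24 h, and after 72 h 584, 571, 556 and 538 CPM, which overlapped. The uncalled mut changes, -0.02 and -0.04, turned to 0.07 and 0.03 with TMM factors. Every mut library lay below every WT library at 24 and 72 h, by -0.34 ± 0.04 (adjusted p = 2.5e-07) and -0.28 ± 0.04 (adjusted p = 3.2e-06), and no difference was called in solvent (-0.03). The interaction was called at 24 h, -0.31 ± 0.06 (adjusted p = 0.0013), and at 72 h, -0.25 ± 0.06 (adjusted p = 0.0041). With the replications of each clone summed it was no longer called, at -0.31 (adjusted p = 0.053) and -0.25 (adjusted p = 0.079).

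β-catenin, encoded by CTNNB1, binds the cadherin tail and is also the transcriptional effector of Wnt signalling. In WT it was 451, 409, 443 and 356 CPM in solvent and 497, 487, 504 and 477 CPM at 6 h. At 72 h it was 567, 537, 509 and 508 CPM, above all solvent libraries (log2 fold change 0.36 ± 0.08, adjusted p = 2.2e-04). The 6 h change, 0.25 ± 0.08 (adjusted p = 0.021), was called too, but not without the solvent library 2-2, at 0.18 (adjusted p = 0.12), nor with the replications summed, at 0.24 (adjusted p = 0.082). In mut the solvent values 421, 479, 395 and 434 CPM and the 72 h values 467, 439, 379 and 373 CPM overlapped (log2 fold change -0.06 ± 0.08, adjusted p = 0.58), and the sign of this value turned with TMM factors, at 0.01 (adjusted p = 0.94). At 72 h each mut library was below each WT library (log2 fold change -0.36 ± 0.08, adjusted p = 3.7e-04). The interaction at 72 h was -0.42 ± 0.11 (adjusted p = 0.0092), and -0.42 (adjusted p = 0.064) with the replications summed. At 24 h it was -0.24 ± 0.11 (adjusted p = 0.15), and -0.24 (adjusted p = 0.035) with series as replicate block.

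p120-catenin, encoded by CTNND1, holds cadherins at the membrane. Its counts stayed between 4.0 and 11.7 CPM, and no TGFβ1 comparison was called in either genotype, with -0.19 ± 0.14 (adjusted p = 0.27) in WT and -0.26 ± 0.15 (adjusted p = 0.24) in mut at 72 h. At 72 h it was 9.05, 9.14, 8.82 and 8.68 CPM in WT and 8.29, 7.90, 7.51 and 4.0 CPM in mut, without overlap (log2 fold change -0.41 ± 0.15, adjusted p = 0.034). Without the library 65-2, which held 4.0 CPM, the value was -0.18 (adjusted p = 0.25). The call was also lost without any one of the 4 WT libraries, at adjusted p between 0.052 and 0.064, and with the replications summed, at -0.37 (adjusted p = 0.07).

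EPCAM (chromosome 2, 47345158 to 47387601, plus strand) fell most of the members. In WT it went from 54.2, 51.6, 33.5 and 46.9 CPM in solvent to 22.5, 16.0, 13.9 and 11.2 CPM at 24 h. At 72 h it was 18.7, 17.8, 14.4 and 9.23 CPM, all below the solvent libraries (log2 fold change -1.66 ± 0.23, adjusted p = 1.0e-06). In mut it was 82.7, 75.7, 74.0 and 73.0 CPM in solvent, then 33.1, 40.8, 47.1 and 35.0 CPM at 24 h, and after 72 h 37.4, 39.6, 34.2 and 46.4 CPM, again without overlap with solvent (log2 fold change -0.97 ± 0.19, adjusted p = 3.1e-04). From 24 to 72 h the values were -0.11 in WT and 0.02 in mut, both uncalled. 

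EPCAM was also the one member called between mut and WT in solvent, where every mut library lay above every WT library (log2 fold change 0.73 ± 0.19, adjusted p = 0.0082). The summed luminal markers, at 707 to 975 CPM in mut and 380 to 575 CPM in WT solvent libraries, did not overlap either. Over all libraries MUC1 had the highest mean of them, 226 CPM, and reached 533 CPM. KRT8, KRT18 and GATA3 averaged 149, 150 and 31.1 CPM, KRT19 and ESR1 only 0.0957 and 0.454 CPM, and ELF5 and PGR were not among the genes counted. At 72 h the summed luminal markers were 439 to 538 CPM in mut, below all mut solvent libraries, and 292 to 464 CPM in WT, while the summed fibroblast markers in mut were 15.3 to 25.0 CPM in solvent and 43.1 to 53.2 CPM at 72 h. The summed basal markers were also apart in solvent, at 14834 to 16471 CPM in mut and 12513 to 13985 CPM in WT. At 72 h they were 15910 to 21223 CPM in mut and 15960 to 18904 CPM in WT. The part of all these markers in the EPCAM differences was not tested. The EPCAM difference between mut and WT was 0.78 ± 0.19 (adjusted p = 0.0041) at 6 h, 1.30 ± 0.23 (adjusted p = 7.5e-05) at 24 h and 1.43 ± 0.23 (adjusted p = 2.1e-05) at 72 h. The mut libraries at 72 h overlapped the WT solvent libraries, which ranged from 33.5 to 54.2 CPM. The interaction was uncalled, 0.57 ± 0.30 (adjusted p = 0.25) at 24 h and 0.70 ± 0.30 (adjusted p = 0.13) at 72 h, and became called with series as replicate block, at 0.56 (adjusted p = 0.048) and 0.66 (adjusted p = 0.018). At 6 h the block also called the EPCAM fall in WT, at -0.38 (adjusted p = 0.037), and in mut, at -0.37 (adjusted p = 0.037). With TMM factors in the block these 6 h values were uncalled, at -0.31 (adjusted p = 0.089) and -0.31 (adjusted p = 0.072), and so was the interaction at 24 h, at 0.47 (adjusted p = 0.093), while that at 72 h was called, at 0.58 (adjusted p = 0.034). With the replications summed no EPCAM interaction was called (adjusted p = 0.23 and 0.13). The change from 6 to 24 h in mut was -0.61 ± 0.19 (adjusted p = 0.07), and -0.61 (adjusted p = 0.0031) with the block.

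Vimentin (VIM, chromosome 10, 17228241 to 17237593, plus strand), the intermediate filament protein of mesenchymal cells, was already abundant in solvent. In WT it was 887, 969, 1336 and 809.8 CPM in solvent, then 1236, 1464, 1813 and 1558 CPM at 24 h, and after 72 h 1365, 1350.3, 1661 and 1539 CPM. The 72 h libraries lay above all solvent libraries, narrowly so for 2-1 against the solvent library of 27-2 (log2 fold change 0.58 ± 0.12, adjusted p = 2.2e-04). In mut it was 794, 896, 852 and 819.7 CPM in solvent and 1172, 1127, 1027 and 1029 CPM at 24 h. At 72 h it was 1268, 1326, 1241 and 1444 CPM, with no overlap with solvent (log2 fold change 0.65 ± 0.12, adjusted p = 2.2e-04). The mut change at 24 h, 0.37 ± 0.12 (adjusted p = 0.025), lost its call without the solvent library 1-1 or 65-2 or the 24 h library 1-1 or 65-1, at adjusted p between 0.056 and 0.082.

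VIM was lower in mut than in WT at 24 h, -0.47 ± 0.12 (adjusted p = 0.0035), and no longer by a called amount at 72 h, -0.16 ± 0.12 (adjusted p = 0.31), with a 95% interval from -0.41 to 0.09. The 6 h difference, -0.36 ± 0.12 (adjusted p = 0.035), was lost without the series 1-2, at -0.29 (adjusted p = 0.15), and without any one of 6 of the 8 libraries of these groups (all but WT 27-1 and mut 65-1), most of all WT 27-2, at -0.26 (adjusted p = 0.16). From 6 to 24 h VIM rose in WT, 0.41 ± 0.12 (adjusted p = 0.012), a call lost without the 6 h library 27-1 or the 24 h library 27-2 (adjusted p = 0.068 and 0.067). With series as replicate block, VIM also rose in mut from 6 to 24 h, 0.30 (adjusted p = 0.0093), and from 24 to 72 h, 0.28 (adjusted p = 0.015). The log2 ratio of VIM to EPCAM counts went from 4.42 ± 0.60 to 6.67 ± 0.56 in WT and from 3.46 ± 0.13 to 5.07 ± 0.09 in mut. At 72 h the lowest WT ratio, 6.19, lay above the highest mut ratio, 5.18. The genotypes were also apart in solvent, where the lowest WT ratio was 4.03 and the highest mut ratio 3.56. At 6 h they overlapped, with 4.09 and 4.18.

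**Figure D4:**
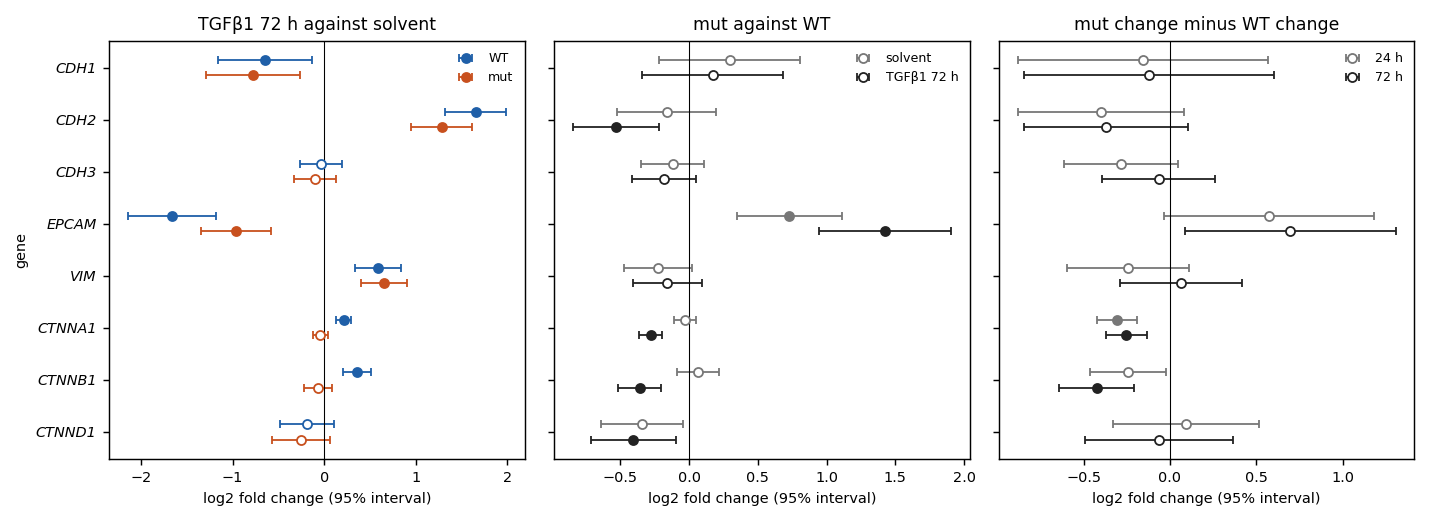
Log2 fold changes of the 8 genes with 95% intervals for TGFβ1 at 72 h against solvent (left), mut against WT (middle) and the mut change minus the WT change (right), with filled points for DEGs. CTNNA1 at 24 h and CTNNA1 and CTNNB1 at 72 h are the filled points on the right, while the EPCAM interval at 72 h, from 0.09 to 1.31, is open because its adjusted p was 0.13.

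The counts of pathway genes that follow are to be read against the shares over all genes at 72 h, which were 52.2% in WT, 24.1% in mut, 39.2% between mut and WT and 12.3% for the interaction. Among 19 other cadherins, 7 were tested, and at 72 h 1 was higher and 2 lower in WT and 1 higher and 0 lower in mut, with a median log2 fold change of -0.06 in WT beside -0.19 over all genes. CDH4, or R-cadherin, at 0.46 in WT, was lower in mut than in WT not only at 72 h (-0.80) but also in solvent, at -0.67 (adjusted p = 0.023), and its interaction at 72 h, -0.14 (adjusted p = 0.8), was uncalled. Of 8 other catenins and p120 relatives, 6 were tested, and 1 was higher and 4 lower in WT and 0 higher and 2 lower in mut. CTNNBIP1, an inhibitor that binds β-catenin, was at -0.57 in WT and -0.32 in mut, and CTNNAL1, an α-catenin relative, at -0.45 in WT. Mut differed from WT at 72 h in 2 of the 7 cadherins, both lower, and in 3 of the 6 catenins, 1 higher and 2 lower, and the interaction was called for 1 of each. With 3 of 7 cadherins called in WT and 1 of 7 in mut, that list lay below both shares, and the catenins had 5 of 6 and 2 of 6. The interaction count of the cadherins was 0 with TMM factors and 2 with series as replicate block, and that of the catenins 3 with the block. In mut the block called 4 catenins and TMM factors 1, where CTNNBIP1 was uncalled at -0.25 (adjusted p = 0.11).

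The 21 adherens junction partners and linkers to actin were all tested, and 11 were higher and 6 lower in WT at 72 h (median 0.23), against 6 and 6 in mut (median 0.06, beside -0.09 over all genes). LIMA1, which binds actin filaments and α-catenin, was at 0.93 in WT and 0.40 in mut, and its interaction, -0.53, was called. KIFC3, a kinesin of junctional microtubules, was at 0.72 in WT, ANK3, an ankyrin that binds E-cadherin, at -0.96 and PLEKHA7, which binds p120-catenin, at -0.82. Mut group means between solvent and 72 h went from 55.6 to 84.4 CPM for KIFC3 and from 53.1 to 33.4 CPM for ANK3. That of PLEKHA7 went from 18.1 to 14.5 CPM. Between mut and WT at 72 h 2 were higher and 6 lower, and the interaction was called for 2, both lower. The interaction count was 4 with TMM factors and 7 with the block. The 17 of 21 called in WT and 12 of 21 in mut stand beside 52.2% and 24.1% over all genes, and no test was made of the list.

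Of 11 EPCAM relatives, partners and proteases, 3 were higher and 4 lower in WT at 72 h and 2 and 2 in mut, with 2 higher in mut than in WT and 0 interactions called. These 7 of 11 and 4 of 11 stand beside 52.2% and 24.1% over all genes. With TMM factors 2 were higher and 2 lower in mut than in WT and 1 interaction was called, and with the block 4 interactions were. The tight junction protein CLDN7, which binds EPCAM, was at -1.73 in WT and -1.93 in mut. ST14, the protease matriptase, was at -0.69 in WT, its inhibitor SPINT1 at 0.30, and FHL2, which binds the EPCAM intracellular fragment, at 0.62. Mut group means between solvent and 72 h went from 296 to 222 CPM for ST14 and from 75.1 to 109 CPM for FHL2. That of SPINT1 went from 218 to 229 CPM. Of 14 vimentin partners and other intermediate filaments 9 were tested, and 2 were higher and 2 lower in WT, among them the linker plectin (PLEC) at 0.48, filamin A (FLNA) at 0.39 and the lamins LMNB1 at -0.69 and LMNB2 at -0.31. In mut 2 were higher and 0 lower, with PLEC at 0.49, and 2 were higher and 3 lower in mut than in WT, with 0 interactions, against 2 with the block. The list had 4 of 9 called in WT and 2 of 9 in mut.

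Of 24 genes of the β-catenin destruction complex and TCF targets, 22 were tested, and 3 were higher and 5 lower in WT and 4 and 2 in mut at 72 h. The destruction complex member AMER1 was at -1.02 in WT and -0.39 in mut, with a called interaction of 0.63, and the β-catenin cofactors BCL9 and PYGO2 were at 0.40 and -0.26 in WT. Mut against WT at 72 h gave 3 higher and 4 lower, and the interaction 1 and 1, or 4 in all with the block. The 8 of 22 called in WT lay below the 52.2% over all genes, and the 6 of 22 in mut stand beside 24.1%. With TMM factors this list had 7 higher and 1 lower in WT, 4 and 1 in mut, and 1 higher and 7 lower in mut than in WT, the junction list 12 and 3 in WT and 7 and 4 in mut, the EPCAM list 4 and 2 and the filament list 3 and 1 in WT, and the catenin list 2 and 3. LMNB2 and PYGO2 in WT were then uncalled, at -0.15 (adjusted p = 0.25) and -0.10 (adjusted p = 0.32). The target AXIN2 was read at a mean of only 0.268 CPM, and NKD1, SP5, NOTUM and LGR5 of this list at 1.02, 0.306, 0.0103 and 0.0128 CPM. Higher means were those of DKK1, ZNRF3, RNF43 and LEF1, at 72.0, 25.4, 17.9 and 6.70 CPM.

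For each member the most similar genes were sought among those with a mean of at least 10 CPM, by Pearson r of log2 CPM over the 32 libraries, which share the treatments and the clones, so r is a description. CDH1 was closest to SLPI (r = 0.96), the desmosomal cadherin DSG3 (0.95) and F11R (0.93). With TMM factors F11R was at 0.81 and place 21. CDH2 was closest to fibronectin, FN1 (0.96), CLSTN1 (0.96) and the collagen COL4A2 (0.96). CDH3 was closest to MEAK7 (0.90), plakoglobin, JUP (0.86), and MTSS1 (0.86). EPCAM was closest to KCNIP3, AIF1L and STMN3 (each 0.97), and VIM to PLOD1 (0.97), LPXN (0.95) and POLM (0.95). CTNNA1 was closest to MVP (0.93), KCTD10 (0.92) and MYD88 (0.91), CTNNB1 to KIF1C, TUBA1A (each 0.87) and ADD1 (0.86), and CTNND1 to SON (0.85), AKAP13 (0.85) and APC (0.83). With TMM factors MVP went to place 6 for CTNNA1, and KIF1C, TUBA1A and ADD1 had r values of 0.92, 0.94 and 0.91.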

How the data were processed

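RNA of 32 MCF10A cultures was sequenced by the authors (TruSeq RNA kit v2, which keeps no strand, paired reads), who trimmed reads with Trimmomatic and used STAR for alignment and counting against GRCh38 in the Ensembl version, whose release is not given in the sources used here. The values deposited by the authors are whole-number counts per gene and library without normalization. Genes were named by GENCODE release 44, which named 17763 of 17788. The 8 genes and all gene lists were chosen with earlier results of these data known.

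Following the study, counts were scaled by library size and fitted with voom of limma 3.58.1 (R 4.3.3), model ~0 + condition over all 32 libraries, with Benjamini-Hochberg adjustment over all genes at 0.05 and no minimum fold change, two-sided. The low-count filter (edgeR 4.0.16 filterByExpr at a minimum of 10 and a total of 15, keeping 14865 genes) and the interactions were chosen here. Groups came from the labels. CPM divides by the library total, TPM was computed from exon lengths of GENCODE, similarity used log2(CPM + 0.5), and ratios and shares were not tested. Besides the 8 genes and JUNB, genes were named by rule, as the 2 largest rises and 2 largest falls per list among DEGs of WT at 72 h with a mean of at least 10 CPM, and the 3 most similar genes per member. AXIN2 and the genes of its list given with mean levels only, KRT5 and the cell type markers were named outside it after their values were seen.

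Alternatives were TMM factors, the quasi-likelihood test of edgeR, DESeq2 1.42.0, the unfiltered table, genes averaging 50 or more counts (12417), only the compared groups, summed replications of a clone, series or replication number as a replicate block, and leaving out series 27-2, series 1-2 or single libraries. Leaving out whole series was included because of those earlier results. The series pairs libraries because the labels give clone and replication, and deviations from group means correlated within series by a mean of 0.431 over 48 pairs (lowest -0.0601). The replicates are cultures of 2 clones per genotype, so p-values measure the spread among these. Counts of any 2 libraries of a group differed by a chi-square of 12.0 or more per degree of freedom, beyond sampling noise. Library totals of 39702412 to 54651906 counts put 3 counts at 0.0549 to 0.0756 CPM, which covers counting error only, as reads lacking molecular identifiers may be copies of 1 molecule. The fit was also run on simulated counts of independent libraries. These lacked the clones and series of the real data, so that run does not test how the fit handles them. Promoter sequences are from RefSeq (GRCh38.p14).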

Additional observations from a re-analysis of the deposited data

Results flagged for a closer look

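Among the 64 sets of 4 libraries (8 genes in 8 groups), 4 had a library farther from the others than chance gives in about 1 of 20 such sets. At that rate a few of 64 sets pass by chance, so the number found is not set apart from it. CDH1 was at 199 CPM in the WT 6 h library 27-2, while the other 3 libraries held 403 to 429 CPM. CDH1 was at 227 CPM in the mut 72 h library 65-1, beside 248 to 249.8 CPM. CTNNA1 was at 621 CPM in the WT solvent library 27-1, beside 578 to 584 CPM. CTNND1 was at 4.0 CPM in the mut 72 h library 65-2, beside 7.51 to 8.29 CPM. Without that library the CTNND1 difference between mut and WT at 72 h was -0.18 (adjusted p = 0.25 in limma-voom), against -0.41 with it.

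The TGFβ1 change differed between mut and WT, by the limma-voom interaction, for CTNNA1 at 24 h (-0.31 ± 0.06, adjusted p = 0.0013) and at 72 h (-0.25 ± 0.06, adjusted p = 0.0041) and for CTNNB1 at 72 h (-0.42 ± 0.11, adjusted p = 0.0092). With the replications of each clone summed, these interactions were no longer called. In each of the 4 WT series both genes were higher at 72 h than in solvent. In mut, CTNNA1 was lower in 4 of 4 series and CTNNB1 in 3 of 4, by amounts that were not called and whose sign turned with TMM factors.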

How the results depend on the processing

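Over the 8 genes, 17 comparisons and all alternatives, 2744 values were recomputed. Of these 2477 kept direction and side of the threshold, 77 gained and 60 lost a call, and 130 changed sign, of which 0 were called as reported and 0 under the alternative. The cause of a changed call was not tested. Counts of members called that moved by over 1.5 times were the following. For WT at 6 h (2 called) they were 4 with TMM factors, edgeR and DESeq2, 5 with the series as a replicate block, also with TMM factors, 0 with only the compared groups and 1 with replications summed. For mut at 6 h (0) the replicate block gave 1 with either scaling, EPCAM with library-size scaling and CDH3 with TMM factors. The equal counts of both scalings hide such exchanges also in WT at 6 h (EPCAM against CTNNA1) and in the interaction at 24 h (EPCAM against VIM). From 24 to 72 h in WT (1) the count was 0 with only the compared groups and 2 with edgeR, DESeq2, the replicate block with either scaling, summed replications and without series 27-2. From 6 to 24 h in mut (1) it was 2 with only the compared groups or without series 27-2, 3 with the replicate block with either scaling and 0 with summed replications. From 24 to 72 h in mut (0) it was 2, 2, 3 and 1 in the same order of settings. For mut against WT at 6 h (3) it was 1 with only the compared groups and without series 1-2. For the interaction at 24 h (1) it was 4 with the replicate block with either scaling, 0 with summed replications and 2 without series 27-2, and at 72 h (2) it was 0 with summed replications. Leaving out single libraries gave 1 to 4 for WT at 6 h, 1 to 2 from 24 to 72 h in WT, 0 to 2 from 6 to 24 h in mut and 1 to 3 for mut against WT at 6 h.

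Of the sign changes, those of values the text prints and of the CDH1 and VIM interactions at 72 h are given, a restriction set after their number was seen. With TMM factors, edgeR, DESeq2 and the replicate block with TMM factors in this order, the uncalled values that turned were CDH3 in WT at 72 h (0.13, 0.14, 0.15 and 0.13, and 0.012 without series 27-2), CTNNA1 in mut at 24 h (0.067, 0.066, 0.078 and 0.067) and at 72 h (0.035, 0.034, 0.037 and 0.035) and CTNNB1 in mut at 72 h (0.012, 0.014, 0.017 and 0.012). The VIM interaction at 72 h was -0.020 with TMM factors, -0.010 with DESeq2, -0.022 with the replicate block with TMM factors and -0.025 without series 27-2. EPCAM from 24 to 72 h in mut was -0.0052 with DESeq2. Without series 27-2, mut against WT was 0.022 for CDH2 in solvent and -0.013 for CDH1 at 72 h. Leaving out single libraries gave -0.095 to 0.067 for CDH3 (WT 72 h against solvent), -0.25 to 0.10 for EPCAM (WT 72 h against 24 h), -0.063 to 0.11 for EPCAM (mut 72 h against 24 h), -0.25 to 0.022 for CDH2 (mut against WT solvent), -0.013 to 0.35 for CDH1 (mut against WT 72 h), -0.083 to 0.16 for VIM (in the interaction at 72 h) and -0.31 to 0.078 for CDH1 (in the interaction at 72 h).

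The replication number, which mut and WT share, did not pair their libraries (mean correlation of deviations 0.0303). As a replicate block it added the calls of CTNNA1 at 6 h, -0.10 (adjusted p = 0.041), and of CTNNB1 at 24 h, -0.18 (adjusted p = 0.027), in mut against WT. In a fit of only the compared groups the calls of CDH3 and CTNNB1 in WT at 6 h, CDH1 in WT at 72 h, VIM from 6 to 24 h and CDH3 from 24 to 72 h in WT, VIM and CDH3 in mut against WT at 6 h and CTNND1 at 72 h were lost. EPCAM and CDH2 kept their calls at 24 and 72 h in both genotypes under every alternative run. CTNND1 had the lowest counts of the members, 179 to 631 per library, and what depth adds to its spread was not tested.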
